A study of Rattus norvegicus with 36 samples.

Results

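Mammary cancers that arose in rats given both gamma radiation and PhIP were set against mammary cancers that arose with no treatment. The groups were read from the sample labels alone and hold 7 of the 36 samples of the series, 4 radiation plus PhIP cancers and 3 spontaneous cancers. All 7 came from female Sprague-Dawley rats, are labelled as H-ras nonmutated, and developed on a diet with 23.5% corn oil that was fed from 9 weeks of age. The rats had been purchased at 5 weeks of age. Treated rats had 1 Gy of whole-body gamma radiation at 7 weeks of age. Beginning 3 days later they were gavaged with PhIP at 40 mg/kg/day on 5 days in each of 2 weeks. Nothing in the labels ties a cancer to a rat, so 2 cancers could share an animal. The p-values measure only the spread between samples, which the gene tests estimated within the 10 groups of all 36 arrays. The labels give neither the age of a rat nor the size of a cancer at sampling.

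PhIP is a heterocyclic amine that forms when meat is cooked. It is activated by cytochrome P450 enzymes of the CYP1 family, which the aryl hydrocarbon (Ah) receptor controls, and by conjugating enzymes, after which it binds guanine in DNA. Gamma rays break DNA strands. Rat mammary cancers are mostly carcinomas of the luminal epithelium that depend on ovarian hormones and prolactin, and they also arise with age in untreated Sprague-Dawley females.

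Each sample was 1 single-colour array with 1 intensity per probe set, and values are given as log2(intensity + 42.8) unless an intensity is named. Every array had been scaled to a trimmed mean of about 500. Correlations between arrays ran from 0.949 to 0.963 within the radiation plus PhIP cancers, from 0.959 to 0.968 within the spontaneous cancers and from 0.927 to 0.956 between the groups. The upper end of the signal differed between the groups. The intensity that the brightest 0.1% of probe sets exceed, called the signal ceiling here, was 12993 to 13868 on the radiation plus PhIP arrays and 10353 to 11796 on the spontaneous arrays, and the added control transcript cre read 10834 to 12140 and 9001 to 10179 (exact two-sided permutation p = 0.0286 for each, the smallest that 35 arrangements allow). Hexokinase 3'/5' ratios, a sign of RNA integrity, overlapped, at 2.06 to 2.37 and 1.66 to 2.73 (exact permutation p = 0.714). Averaged over 17 markers, the luminal epithelial level was 11.28 to 11.42 in radiation plus PhIP cancers and 10.97 to 11.28 in spontaneous cancers, nearly touching. Normal mammary tissue read 10.90 to 11.37, so this level shows mammary epithelial signal on all 7 arrays and does not tell cancer from normal tissue.

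The main comparison asked how cancers with both agents in their history differ from those with neither. In all, 3 genes passed the threshold, and each was lower in the radiation plus PhIP cancers: Plg, the gene of plasminogen, the precursor of the clot-dissolving protease plasmin; Vsnl1, a calcium sensor protein best known from neurons; and Ptprd, a receptor-type tyrosine phosphatase of the cell surface. Out of 11772 genes tested with limma at an adjusted p under 0.05 these were 3 lower (0.0255%) and 0 higher. At an unadjusted p under 0.05 there were 1209 genes (10.3%), 501 with higher (4.26%) and 708 with lower values (6.01%). Mean differences of at least 2-fold were found for 103 genes with higher values (0.875%) and 184 with lower values (1.56%), and differences were below 0 for 54.6% of all genes, with a median of −0.03.

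The promoter of each of the 3 genes past the threshold is shown. It is marked for the Ah receptor motif because the enzymes that activate PhIP answer to that receptor. Sequences are from RefSeq on the GRCr8 build, read along the gene's strand, and hold 250 bases before to 50 bases after an annotated start. The core motif of Ah receptor sites, GCGTG on this strand or CACGC for the opposite strand, is in capitals. Vsnl1 lies on the minus strand at chr6:39878507-39878806, Ptprd has entries on the minus strand at chr5:97415449-97415748 and chr5:95483882-95484181, and Plg lies on the minus strand at chr1:50915357-50915656.
Vsnl1: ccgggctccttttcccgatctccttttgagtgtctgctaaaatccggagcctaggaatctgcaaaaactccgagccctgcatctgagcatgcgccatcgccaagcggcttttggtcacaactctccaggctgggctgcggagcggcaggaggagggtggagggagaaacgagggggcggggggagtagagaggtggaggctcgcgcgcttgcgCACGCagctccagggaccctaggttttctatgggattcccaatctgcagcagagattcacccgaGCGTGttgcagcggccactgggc
Ptprd entry 1: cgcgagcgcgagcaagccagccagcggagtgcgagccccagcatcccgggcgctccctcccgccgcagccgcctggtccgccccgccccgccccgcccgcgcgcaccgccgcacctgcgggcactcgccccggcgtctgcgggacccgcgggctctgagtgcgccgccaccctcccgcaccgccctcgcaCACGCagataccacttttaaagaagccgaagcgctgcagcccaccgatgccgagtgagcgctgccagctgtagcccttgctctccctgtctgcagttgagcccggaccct
Ptprd entry 2: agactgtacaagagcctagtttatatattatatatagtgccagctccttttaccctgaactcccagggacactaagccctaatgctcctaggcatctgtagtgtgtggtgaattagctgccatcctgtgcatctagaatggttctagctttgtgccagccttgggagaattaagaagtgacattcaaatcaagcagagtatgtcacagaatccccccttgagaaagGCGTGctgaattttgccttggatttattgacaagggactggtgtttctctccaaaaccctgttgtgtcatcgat
Plg: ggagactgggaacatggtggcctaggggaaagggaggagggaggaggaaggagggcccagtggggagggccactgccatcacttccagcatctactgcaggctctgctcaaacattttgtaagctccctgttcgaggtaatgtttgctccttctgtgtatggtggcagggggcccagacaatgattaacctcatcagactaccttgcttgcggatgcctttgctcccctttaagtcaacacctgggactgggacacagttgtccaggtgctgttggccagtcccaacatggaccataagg
The motif occurs 2 times in the Vsnl1 window, 1 time in each Ptprd window and 0 times in the Plg window, and 29.7% of 33469 promoters of this length hold it at least 1 time on either strand. These matches describe the letters only, and a link of the 3 genes to the Ah receptor was not tested.

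Vsnl1 measured 6.24, 7.08, 7.20 and 7.20 in the radiation plus PhIP cancers and 9.15, 11.42 and 8.82 in the spontaneous cancers. No value overlapped, and spontaneous cancer 2 stood highest. Vsnl1 fell by 2.86 ± 0.41 (SE) on the log2 scale, a 7.28-fold lower level on this scale (limma adjusted p = 0.00144). As intensities, the radiation plus PhIP arrays read 32.9 to 104.6 for Vsnl1, all under the 125.8 used as the limit for low signal, and the spontaneous arrays read 408 to 2699. In normal mammary tissue Vsnl1 measured 7.01 ± 0.30 (SD, n = 3), near the radiation plus PhIP cancers. A second probe set for Vsnl1 gave a difference of −1.88, also with no overlap.

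Ptprd measured 7.81, 7.31, 7.94 and 7.19 against 9.17, 9.92 and 9.76. Every spontaneous cancer lay more than 1 log2 unit above every radiation plus PhIP cancer. Ptprd fell by 2.05 ± 0.32, a 4.14-fold lower level (limma adjusted p = 0.00393), and normal tissue lay between the groups at 8.63 ± 0.31 (SD, n = 3). Its second probe set differed by −1.24 with no overlap, while another, too dim to pass the filter, differed by 0.07 and overlapped. The call for Ptprd was lost without spontaneous cancer 2 (−1.90 ± 0.37, adjusted p = 0.0686).

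Of the 3 genes Plg had the largest fall, with 7.21, 7.65, 6.67 and 5.82 against 10.02, 10.40 and 9.75. Intensities were 13.9 to 157.5 and 821 to 1306, so plasminogen signal was near the low end of the scale in radiation plus PhIP cancers and well above it in every spontaneous cancer. Plg fell by 3.22 ± 0.55, a 9.33-fold lower level (limma adjusted p = 0.0089), and normal tissue measured 6.69 ± 0.51 (SD, n = 3). The call for Plg was lost without radiation plus PhIP cancer 4 (−2.88, adjusted p = 0.0675), without spontaneous cancer 1 (−3.24, adjusted p = 0.0595) or 2 (−3.05, adjusted p = 0.0823), and with the signal ceiling as a covariate (−2.82, adjusted p = 0.102). In bulk tissue, fewer cells that express a gene and less RNA per cell cannot be told apart for any of these genes.

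**Figure D1:**
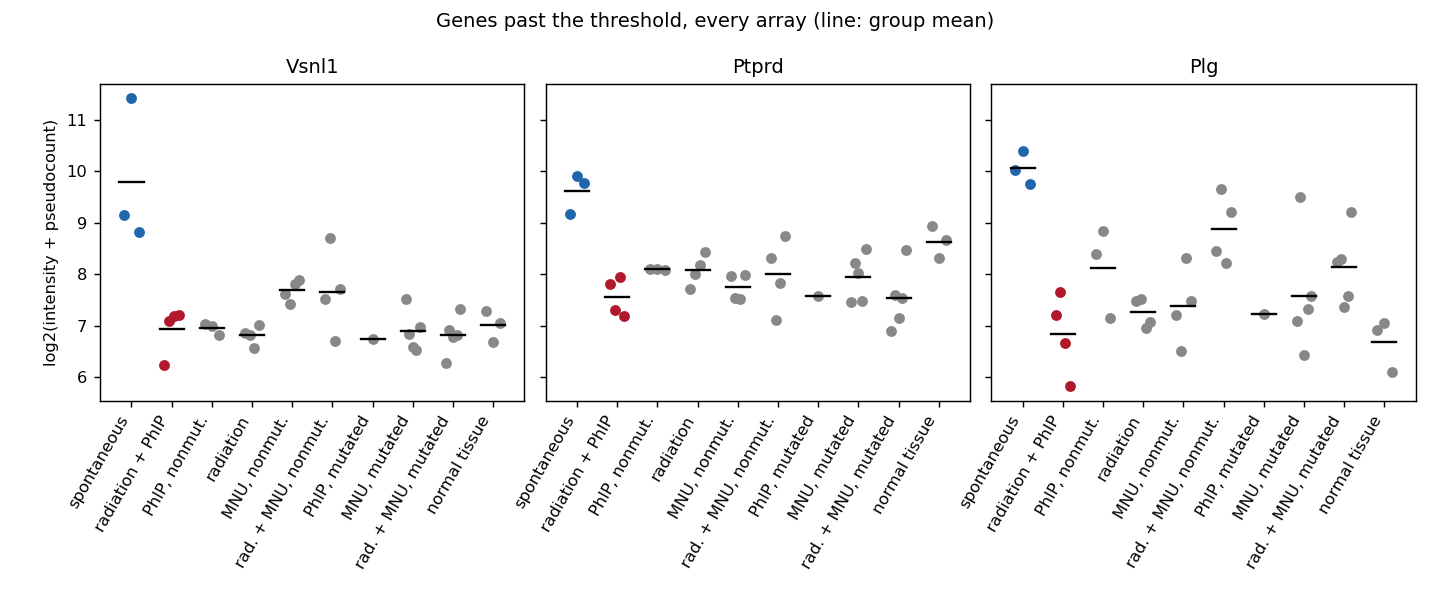
Levels of Vsnl1, Ptprd and Plg as log2(intensity + pseudocount) on the vertical axis, 1 point per array, for the 10 groups of the series, with a line at each group mean. The 3 spontaneous cancers (blue) lie above all 4 radiation plus PhIP cancers (red) in each panel, and they also exceed every other array. The gaps are small, with 9.75 as the lowest spontaneous value and 9.66 as the highest value outside that group for Plg. The same values are 8.82 and 8.70 for Vsnl1, and 9.17 and 8.93 for Ptprd.

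Plasminogen is activated by urokinase at its receptor, and the genes of that system were in the list of matrix proteases and inhibitors. Plaur, the urokinase receptor, measured 7.02 to 7.49 and 7.74 to 8.11 (−0.65 ± 0.22, adjusted p = 0.331), and urokinase itself, Plau, 8.79 to 9.54 and 9.47 to 10.05 (−0.61 ± 0.41, adjusted p = 0.618). The membrane protease Mmp14 measured 10.51 to 11.13 and 11.41 to 11.50 (−0.71 ± 0.33, adjusted p = 0.462), and the protease inhibitor Timp3 had higher values with overlap (0.64). None of the 14 measured members passed, 7 had higher and 7 lower values, and the list median was −0.03.

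The count of 3 depended on how the spread was estimated. When only the 7 arrays entered the fit, 27 genes passed, 6 higher and 21 lower, 2 of which were among the 3 named above (Plg and Ptprd), while Vsnl1 had adjusted p = 0.102. With weights estimated for each array, a step that ended before reaching its tolerance, 770 passed. Without spontaneous cancer 3 the count was 8, 2 higher and 6 lower. With the signal ceiling as a covariate, an alternative chosen after the data had been seen, it was 2.

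The genes just outside the threshold are given as values. Stc1, the secreted hormone stanniocalcin 1, measured 9.59, 9.20, 9.32 and 8.85 against 11.46, 10.27 and 10.04, with a difference of −1.35 ± 0.26 (limma adjusted p = 0.0552). It passed with quantile normalization (−1.38, adjusted p = 0.0343). Gpr37, an orphan G protein-coupled receptor, was tightly grouped, at 10.17, 10.18, 10.18 and 10.32 against 11.47, 11.23 and 11.67 (−1.25 ± 0.26, adjusted p = 0.0806). Esrrb, the oestrogen-related receptor beta, measured 8.42, 8.06, 8.06 and 8.85 against 11.02, 10.98 and 10.62 (−2.52 ± 0.53, adjusted p = 0.0854). None of these 3 genes overlapped between the groups (9.73% of all genes were lower in that way), but they were chosen by p on these same arrays. Gpr37 (limma adjusted p = 0.0226) and Esrrb (adjusted p = 0.016) passed when only the 7 arrays were fitted.

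Des, the muscle intermediate filament desmin, measured 8.12, 7.98, 7.55 and 8.38 against 10.23, 9.90 and 9.11 (−1.74 ± 0.36, limma adjusted p = 0.0806). Edil3, a secreted protein that binds integrins, measured 6.21 to 6.88 and 7.48 to 9.62 (−1.92 ± 0.42, adjusted p = 0.0986). LOC102554403 (−1.97 ± 0.43) and Pgap4, an enzyme of lipid anchor remodelling (−0.84 ± 0.18), had the same adjusted p. The largest difference of all, chosen here after the values were seen, was that of Igfals, the carrier subunit for circulating insulin-like growth factors, with means of 6.10 and 10.08 (−3.98 ± 1.01, adjusted p = 0.197).

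Of the genes with higher values, 1 had an adjusted p under 0.1. Ctu2, a subunit of the enzyme that thiolates transfer RNA, measured 8.24, 8.14, 8.08 and 7.87 against 7.71, 7.51 and 7.44 (0.53 ± 0.12, limma adjusted p = 0.0986). It passed with quantile normalization (0.58, adjusted p = 0.0343). The next 9 by p had adjusted p from 0.209 to 0.223. Among them were the junction proteins Afdn (0.69 ± 0.18) and Cldn10 (2.01 ± 0.55), the semaphorin Sema4b (0.85 ± 0.22) and the mitochondrial acetyl-CoA synthetase Acss1 (1.80 ± 0.50). The secreted protease Adamts1 was nearly constant in radiation plus PhIP cancers, at 11.88 to 11.98, and measured 9.83, 11.54 and 9.97 in spontaneous cancers.

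A pair of these next genes with higher values rested on single arrays or on a split within a group. Ighvl1, an immunoglobulin heavy chain gene by its symbol, measured 11.65 in radiation plus PhIP cancer 1 and 7.76 to 9.17 in the other 3 (2.07 ± 0.55). RT1-CE10, a class I histocompatibility gene, measured 12.69 to 13.04 in radiation plus PhIP cancers, but 9.31 and 9.71 in spontaneous cancers 1 and 2 and 12.46 in spontaneous cancer 3 (2.34 ± 0.65). Without spontaneous cancer 3 it passed (3.32, adjusted p = 0.026). Of 8 measured members of the class II presentation list, a pair had the same split of spontaneous cancers. RT1-Bb measured 6.53, 6.59 and 11.56 in them and 9.31 to 11.79 in radiation plus PhIP cancers, and RT1-Ba 6.91, 7.93 and 12.04 against 10.16 to 12.55. The other members with the smallest p, the class II regulator Ciita (−0.46) and RT1-DMa (−0.49), had lower values with overlap. In all, 3 members had higher and 5 lower values, all 8 overlapped, and the median was −0.32. List means ran from 9.75 to 11.49 in radiation plus PhIP cancers and from 9.90 to 11.16 in spontaneous cancers. These genes belong to a family of near-identical, polymorphic copies, so a probe may read more than 1 copy or miss an allele, and that was not tested.

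**Figure D2:**
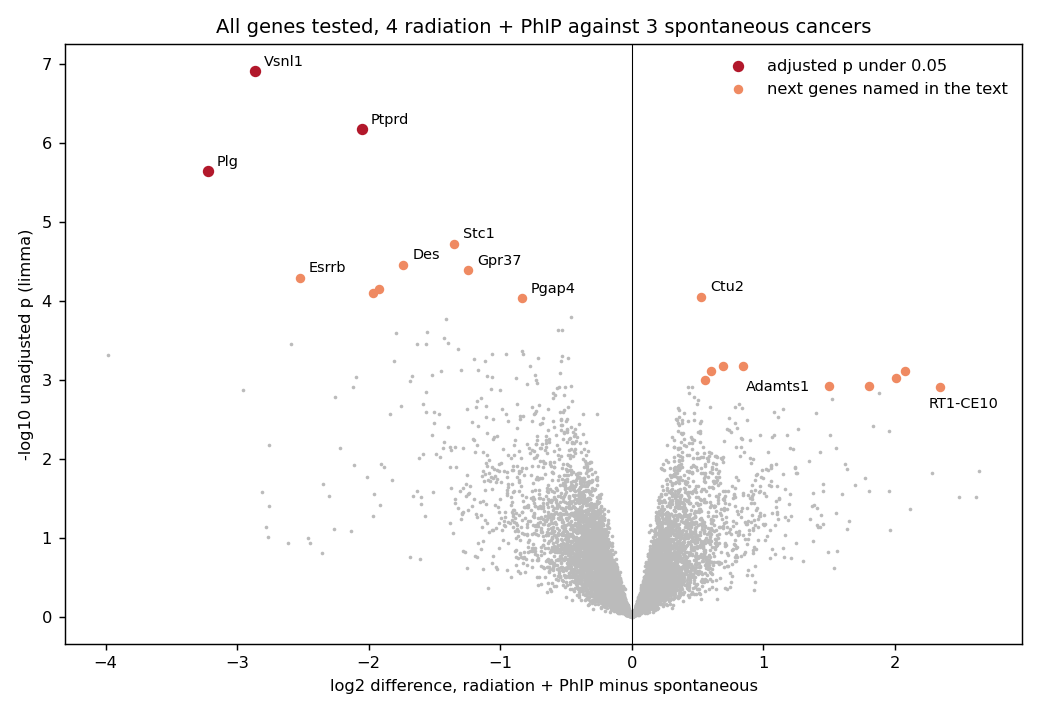
Log2 difference, radiation plus PhIP minus spontaneous, on the horizontal axis and −log10 of the unadjusted limma p on the vertical axis, 1 grey point for each of 11772 genes. The 3 genes past the threshold (red) lie on the left, as do 7 of the next genes (orange), while the 10 orange points on the right reach less far up.

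Genes that handle PhIP and genes that answer DNA damage were described through lists. Of 11 measured members of the xenobiotic metabolism and Ah receptor list, none passed the threshold. An unadjusted p under 0.05 was found for 1 with higher values (4.26% of all genes) and 3 with lower values (6.01% of all genes), and 3 had lower values with no overlap (9.73% of all genes did). Gstm1, a glutathione transferase, measured 8.53, 8.25, 8.28 and 8.63 against 11.09, 10.29 and 10.25 (−2.12 ± 0.59, limma adjusted p = 0.223). It passed when only the 7 arrays were fitted (adjusted p = 0.0303). Nqo1, a quinone reductase, measured 8.53 to 9.05 and 9.52 to 10.33 (−1.13), and the PhIP-activating Cyp1b1 measured 7.64, 7.89, 8.87 and 10.14 against 10.10, 10.66 and 10.04 (−1.63). The conjugating enzyme Sult1a1 had higher values (0.69). In all, 4 members had higher and 7 lower values, with a median of −0.17 and a mean difference of −0.39, on which the falls of Gstm1, Cyp1b1 and Nqo1 weigh. As a mean over the list, the arrays read 8.87 to 9.03 and 9.32 to 9.37, with normal tissue at 9.47. Other H-ras nonmutated groups were also below the spontaneous mean of 9.34. They averaged 8.96 after radiation, 9.02 after PhIP, 9.11 after the alkylating agent MNU and 9.16 after radiation plus MNU. The lower list mean was therefore not particular to cancers given PhIP.

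The medians of p53 targets and of DNA repair genes were near 0. The 13 measured p53 targets had a median difference of 0.06, with 7 above and 6 below 0, and none had an unadjusted p under 0.05. Cdkn1a, the p53-induced inhibitor of cell cycle kinases, averaged 10.45 against 11.06 with overlap (−0.62 ± 0.37, limma adjusted p = 0.576). The death receptor Fas had higher values with no overlap (0.38), and the stress-induced Sesn2 overlapped (−0.18). Of 16 DNA repair genes, Brca1 measured 6.97 to 7.44 and 7.54 to 7.96 (−0.53 ± 0.24, adjusted p = 0.446). The excision repair gene Xpa had higher values with no overlap (0.40), while Xrcc5 (−0.28) and Ercc1 (−0.17) overlapped, and the median over the list was 0.01. Among cyclins, CDK inhibitors and tumour suppressors, the leading genes by p included Ccnd1 (0.49) and Cdkn2b (0.56), both with overlap.

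Cell cycle genes had lower values in radiation plus PhIP cancers for all 26 measured members, although none passed the threshold. The median difference was −0.70, against −0.03 over all genes. Values did not overlap for 19 of the 26 (9.73% of all genes were lower in that way), and 8 had an unadjusted p under 0.05 on the lower side (6.01% of all genes). Means over the list were 9.24, 9.08, 9.49 and 9.25 in radiation plus PhIP cancers and 9.73, 9.99 and 10.11 in spontaneous cancers, with normal tissue at 8.59 ± 0.41 (SD, n = 3). These genes share the same arrays and vary together, so they are not 26 separate results.

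The smallest p values of the cell cycle list were spread over mitosis and the entry into S phase. Cdc20, the activator of the anaphase-promoting complex, measured 8.85, 8.75, 9.11 and 9.19 against 10.09, 10.68 and 10.86 (−1.57 ± 0.48, limma adjusted p = 0.269). The mitotic kinase Aurka measured 8.18, 7.97, 8.58 and 8.23 against 8.89, 9.43 and 9.58 (−1.06 ± 0.33, adjusted p = 0.277). Birc5, a subunit of the mitotic passenger complex, measured 8.92 to 9.22 against 9.60 to 10.33 (−0.89 ± 0.31, adjusted p = 0.329). Ccne1, the cyclin that drives entry into S phase, measured 7.52 to 7.98 against 8.46 to 8.81 (−0.90 ± 0.34, adjusted p = 0.373). The mitotic cyclin Ccnb1 measured 9.46 to 9.65 against 10.34 to 10.88 (−1.03 ± 0.41, adjusted p = 0.394). The replication licensing genes Mcm2, Mcm3, Mcm5, Mcm6 and Mcm7 were nearer to 0, from −0.05 to −0.26, and all 5 overlapped. The proliferation marker Mki67 measured 9.92 to 10.62 and 10.79 to 11.05 (−0.61 ± 0.46, adjusted p = 0.665). With the signal ceiling as a covariate the list median was −0.42 and 25 of 26 were below 0. Without spontaneous cancer 2 the count below 0 was also 25, with a median of −0.68. When only the 7 arrays were fitted, 3 of the 26 passed (Cdc20, Ccnb1 and Aurkb), where 27 of all 11772 genes did. Vsnl1 did not pass in that fit.

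**Figure D3:**
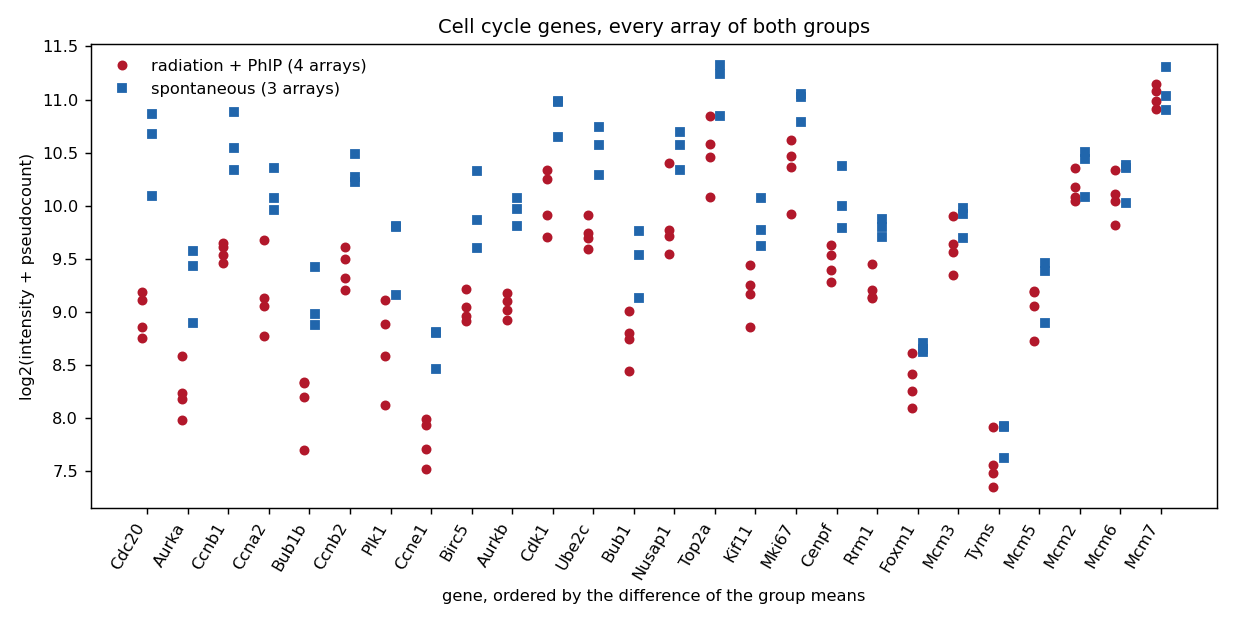
Level of each of 26 cell cycle genes as log2(intensity + pseudocount) on every array of both groups, with genes ordered from the largest to the smallest difference of group means. The spontaneous cancers (blue squares) lie above the radiation plus PhIP cancers (red circles) with no overlap for 19 genes, from Cdc20 (8.75 to 9.19 against 10.09 to 10.86) on the left, and the Mcm genes on the right overlap.

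Hormone receptor genes had values in both directions. Pgr, the progesterone receptor, measured 8.50, 8.68, 8.48 and 8.29 against 10.99, 10.16 and 10.59 (−2.09 ± 0.57, limma adjusted p = 0.215). Wnt4, a secreted signal that progesterone induces in the mammary gland, measured 9.08, 9.45, 9.26 and 9.76 against 11.34, 11.33 and 10.92 (−1.81 ± 0.47, adjusted p = 0.197). Both genes were separated by more than 1 log2 unit on every array, and both passed when only the 7 arrays were fitted (adjusted p = 0.0226 for Pgr and 0.0302 for Wnt4). The growth factor receptor Igf1r (0.94) and the growth hormone receptor Ghr (0.70) had higher values with no overlap, and the oestrogen receptor Esr1 overlapped (0.14 ± 0.45), as did Tff1, a gene known to answer to oestrogen (−0.29). Of 18 measured members of the hormone list none passed, and the median was 0.09.

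The other WNT genes with the smallest p had higher values. Lef1, a transcription factor of the canonical pathway, measured 11.25, 11.01, 11.41 and 11.58 against 9.83, 10.66 and 10.34 (1.04 ± 0.43, limma adjusted p = 0.406). The receptor Fzd1 (0.55) and the secreted modulator Sfrp2 (1.41) also had no overlap. The 15 measured WNT genes had a median of 0.02.

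Of 11 measured ERBB ligands and receptors none passed, 3 had higher and 8 lower values, and the median was −0.17. The ligands Btc (−1.03), Ereg (−1.04) and Tgfa (−0.72) had lower values with no overlap (9.73% of all genes did), each with an unadjusted p under 0.05 on that side (6.01% of all genes). The ligands Areg (−0.26) and Hbegf (−0.17) had lower and Nrg1 (0.45) and Egf (0.33) higher values. Of the receptors, Egfr had higher values with no overlap (8.65% of all genes did), 10.60 to 11.07 against 10.32 to 10.37 (0.53), while Erbb2 (−0.44) and Erbb3 (−0.07) had lower values. Among 17 RAS-MAPK output genes, which report signalling below RAS, 4 had higher values with no overlap (8.65% of all genes did). They were the feedback inhibitors Spry4 (9.96 to 10.25 against 9.52 to 9.70) and Dusp6 (12.95 to 13.14 against 12.10 to 12.53), the ephrin receptor Epha4 and the transcription factor Etv5. The immediate early gene Fos had lower values with overlap (−0.50). None passed, 11 had higher and 6 lower values, and the median was 0.23.

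Among epithelial lineage genes none passed the threshold. Kit, the receptor of luminal progenitor cells, measured 11.39, 11.25, 11.25 and 10.77 against 9.62, 8.89 and 9.49 (1.83 ± 0.58, limma adjusted p = 0.29), and passed when only the 7 arrays were fitted (adjusted p = 0.0367). Gata3, a factor of mature luminal cells, had lower values (−0.53), as did the luminal factor Spdef (−0.87), and Ehf, an epithelial factor, higher ones (1.26), all with overlap. The keratins Krt8, Krt18 and Krt19 differed by 0.13, 0.02 and 0.05. Of 15 basal and myoepithelial markers, 13 had higher values, where 54.6% of all genes had lower ones, and the median was 0.31. List means overlapped, at 11.01 to 11.55 in radiation plus PhIP cancers and 10.92 to 11.35 in spontaneous cancers. Itgb4 (0.39) was the 1 marker with an unadjusted p under 0.05 (4.26% of all genes on the higher side). The contractile genes Mylk (0.39) and Acta2 (0.39) and the keratin Krt17 (0.45) followed by p, Mylk with no overlap. Milk genes varied within the radiation plus PhIP cancers: the whey protein Wap measured 12.69, 5.91, 11.81 and 9.84, and 11.67 ± 0.79 (SD, n = 3) in spontaneous cancers. Glycam1 (−2.36), Xdh (0.78) and the casein Csn2 (−1.07) overlapped, and Xdh had the other sign with the signal ceiling as a covariate (−0.18). The 4 measured squamous genes overlapped, with Sfn at −0.83, Krt10 at −0.09, Krt1 at 0.07 and Calml3 at 0.01.

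Markers of other cell types differed between arrays within the groups as well as between the groups. Skeletal muscle markers were above the rest in spontaneous cancers 1 and 3, with list means of 9.96, 7.02 and 8.70 in the spontaneous cancers and 7.02 to 7.24 in the radiation plus PhIP cancers. For Tnnc2, a troponin of fast muscle, the values were 6.65 to 7.08 against 10.49, 6.98 and 9.11. In all, 13 of 14 members had lower values (54.6% of all genes did) and 9 had an unadjusted p under 0.05 on that side (6.01% of all genes), with a median of −1.32. Myoz1 (6.75 to 7.78 against 7.82 to 8.95) and Tnni2 (−1.38) had no overlap and Pvalb (−1.14) overlapped. The fourteenth, Myh1, measured 12.11 to 12.46 on all 7 arrays and overlapped. The desmin gene Des was high in spontaneous cancer 2 as well, where the muscle list was at the level of the radiation plus PhIP cancers; the part of muscle in the Des difference was not tested. Mast cell markers had list means of 6.78 to 7.02 in radiation plus PhIP cancers 1, 2 and 3, of 10.15 in cancer 4 and of 8.28 to 10.26 in the spontaneous cancers. All 9 members had lower values (median −1.26), and all 9 overlapped, among them the proteases Cma1 (−2.78) and Cpa3 (−1.69).

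Fat cell markers, at a list mean of 11.31 in normal tissue, were low in both groups, at 7.69 to 7.78 and 8.06 to 8.31 with no overlap. Cd36, a fatty acid transporter, measured 6.95, 6.38, 7.32 and 7.71 against 9.29, 10.23 and 8.54 (−2.26), and Pparg, the regulator of fat cell formation, at most 6.73 against at least 7.27 (−0.94). The lipase Lipe had lower values with no overlap (−0.63), and Car3 overlapped (−1.15). The defining fat cell genes Adipoq (0.04), Lep (0.02) and Plin1 (−0.47) overlapped, and the 16 markers had a median of −0.20. Macrophage markers had lower values for 14 of 15 members (54.6% of all genes did), with a median of −0.35. The integrin Itgam (5.73 to 6.30 against 6.57 to 7.49) was the 1 member with an unadjusted p under 0.05 on that side (6.01% of all genes). Mrc1, a receptor of resident macrophages, had lower values (−0.72) with no overlap (9.73% of all genes did), and Fcgr3a (−0.34) and C1qa (−0.46) overlapped. B and plasma cell markers were high in radiation plus PhIP cancer 1, with a list mean of 10.41, where the other 6 arrays had 8.49 to 9.20. Pou2af1, a coactivator of B cells, measured 10.73 there and 6.48 to 8.03 on the others (1.43), and Jchain (1.49) and Cd74 (−0.40) overlapped; Cd74 had the other sign without that cancer (0.19). Medians were near 0 for T and NK cell (−0.02), endothelial (0.03) and mesenchymal transition (−0.04) genes.

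The leading genes of these lists by p mostly overlapped. Among T and NK cell genes Cd8a had lower values with no overlap (−0.55), and Cd2 (−0.58), Cd8b (−0.26) and Nkg7 (0.23) overlapped. The endothelial genes Vwf (0.50), Emcn (0.34), Egfl7 (0.15) and Esam (0.06) all overlapped. So did the transition genes Zeb2 (−0.46), Tgfb1 (−0.25), Zeb1 (0.24) and Tgfbi (−0.08); Zeb2 had the other sign with the signal ceiling as a covariate (0.08). Fibroblast and matrix genes had a median of −0.16, and Col5a1 (−0.39), Pdgfra (0.43), Col6a1 (−0.38) and Col6a3 (−0.24) overlapped. The 3 brown fat genes had a median of −0.39, with Cpt1b at −0.39, Cidea at −0.60 and Ppargc1a at −0.13, all with overlap. In the nerve and Schwann cell list the myelin gene Pmp22 had higher values with no overlap (0.64), and S100b (−0.56), Sox10 (0.60) and Gfap (0.38) overlapped.

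Stress and metabolic genes included single genes with large differences. Atf3, a stress-induced transcription factor, measured 7.99, 8.08, 6.56 and 7.59 against 9.27, 9.55 and 9.24 (−1.80 ± 0.43, limma adjusted p = 0.175), while the list of heat shock and unfolded protein response genes had a median of −0.01. Atf4 had higher values with no overlap (0.29), and Ddit3 (−0.24) and Hspb1 (−0.35) overlapped. Acacb, an acetyl-CoA carboxylase, measured 9.10, 8.50, 8.65 and 7.51 against 6.56, 6.37 and 6.76 (1.88 ± 0.54, adjusted p = 0.237), in a fatty acid synthesis list with a median of 0.08. The elongases Elovl6 (−0.71) and Elovl5 (−0.25) and the acetyl-CoA synthetase Acss2 (−0.50) overlapped. Cholesterol synthesis genes had a median of −0.15, and Mvd (−0.82), Lss (−0.23), Sc5d (0.26) and Dhcr7 (0.34) overlapped. The cystine carrier Slc7a11 measured 6.94 to 7.40 and 7.55 to 7.93 (−0.68). In the same oxidative stress list haem oxygenase Hmox1 had lower values with no overlap (−0.73), and catalase Cat (0.36) and Srxn1 (−0.39) overlapped. Hexokinase Hk1 measured 11.49 to 11.92 and 11.15 to 11.23 (0.46), and 12 of 17 glycolysis and hypoxia genes had higher values (median 0.24), with Eno1 (0.34), Pdk1 (0.28) and Pfkl (0.42) overlapping. No member of any of the 34 lists, with 423 of 511 members measured, passed the threshold.

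**Figure D4:**
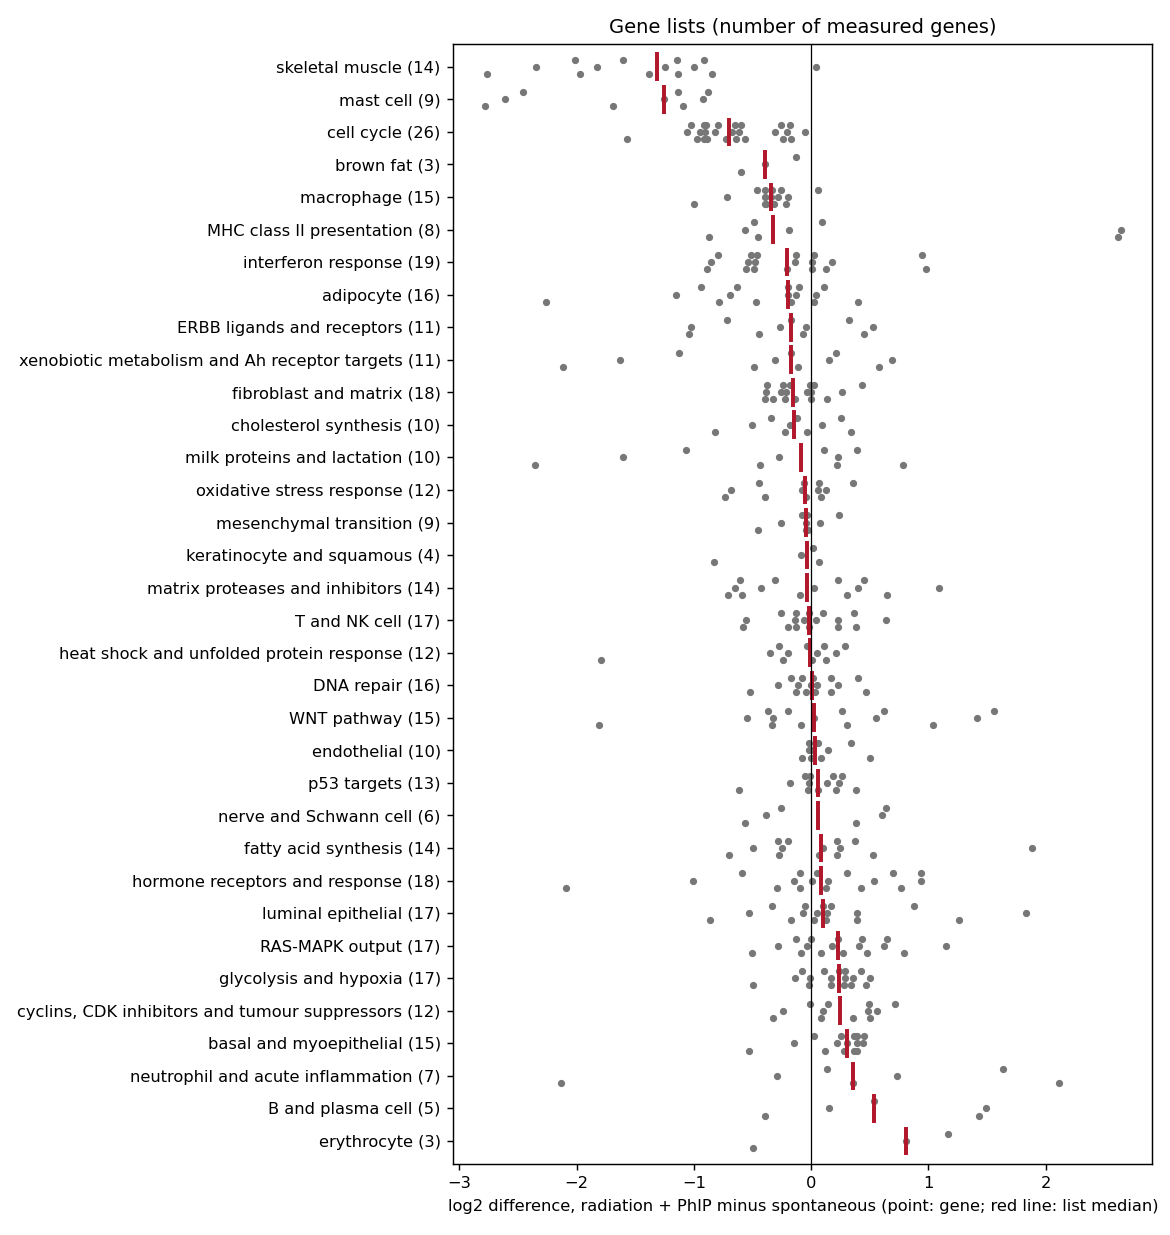
Log2 difference, radiation plus PhIP minus spontaneous, for each measured gene (grey point) of 34 lists, with the number measured in brackets and the list median as a red line. Skeletal muscle (−1.32), mast cell (−1.26) and cell cycle (−0.70) have the lowest medians against −0.03 over all genes, and the points of most other lists lie on both sides of 0.

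The next comparison asked whether the radiation plus PhIP cancers differ from the spontaneous ones by more or less than the sum of the differences seen with each agent alone, using 3 PhIP cancers and 4 radiation cancers, all H-ras nonmutated. No gene passed this interaction test with limma, and 701 had an unadjusted p under 0.05 (5.95%). The smallest p belonged to Vsnl1 (2.96 ± 0.58, adjusted p = 0.237), Lef1 (2.92 ± 0.61, adjusted p = 0.254) and Obp3, an odorant-binding protein (2.11 ± 0.47, adjusted p = 0.381). For Vsnl1 each agent alone and both together gave similar levels, 6.95 ± 0.11 (SD, n = 3) with PhIP, 6.81 ± 0.19 (SD, n = 4) with radiation and 6.93 ± 0.46 (SD, n = 4) with both, against 9.80 ± 1.42 (SD, n = 3) in spontaneous cancers. The treated levels lay near the low end of the scale, which left no room for the falls with each agent to add up. A positive departure for Vsnl1 was therefore fixed in advance, and how the agents combine was not tested by it.

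Against the mean of the other 4 induced H-ras nonmutated groups (15 cancers after radiation, PhIP, the alkylating agent MNU, or radiation plus MNU), the radiation plus PhIP cancers had 0 genes past the threshold and 733 with an unadjusted p under 0.05 (6.23%). MNU had been given at 40 mg/kg. The smallest p were those of Ighvl1 (2.09 ± 0.41) and Lef1 (1.55 ± 0.32), both with limma adjusted p = 0.204. Without radiation plus PhIP cancer 2 the count was 3.

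The spontaneous cancers, set against the same 4 groups with no radiation plus PhIP array in the contrast, had 6 higher genes (0.051%) and 1 lower gene (0.00849%). Vsnl1 (2.52 ± 0.34, limma adjusted p = 4.76e-04), Ptprd (1.63, adjusted p = 0.00385), Stc1 (1.49, adjusted p = 0.0011), Gpr37 (1.42, adjusted p = 0.00113) and Obp3 (1.40, adjusted p = 0.0342) were among the rises, and Ctu2 fell by 0.50 (adjusted p = 0.0298). Plg differed by 2.15 and did not pass (adjusted p = 0.0726). Cell cycle genes had higher values in the spontaneous cancers for 26 of 26 members, with a median of 0.63 against 0.02 over all genes. The same 3 spontaneous arrays enter the main comparison, so genes and lists that recur in both are not separate results. The count of genes past the threshold was 4 without spontaneous cancer 1 or without spontaneous cancer 2, and 3 genes of each run were among the 7. Without spontaneous cancer 3 it was 7, again with 3 shared.

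Differences of the PhIP and radiation cancers from the same 3 spontaneous arrays are given side by side, since they share those arrays. Vsnl1 differed by −2.85 ± 0.44 after PhIP (limma adjusted p = 0.00534), by −2.98 ± 0.41 after radiation (adjusted p = 6.84e-04) and by −2.86 ± 0.41 after both. Ptprd differed by −1.52 (adjusted p = 0.342), −1.54 (adjusted p = 0.0815) and −2.05. Plg differed by −1.93 (adjusted p = 0.786), −2.80 (adjusted p = 0.0558) and −3.22. The cell cycle median was −0.21 after PhIP, −0.57 after radiation and −0.70 after both. Cell cycle list means of the PhIP cancers ran from 8.84 to 10.52, a range that holds every radiation plus PhIP and every spontaneous array. The order of these medians was not tested. Between radiation plus PhIP and PhIP alone 0 genes passed (1108 with an unadjusted p under 0.05, 9.41%), and between radiation plus PhIP and radiation alone 0 passed (480, 4.08%).

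**Figure D5:**
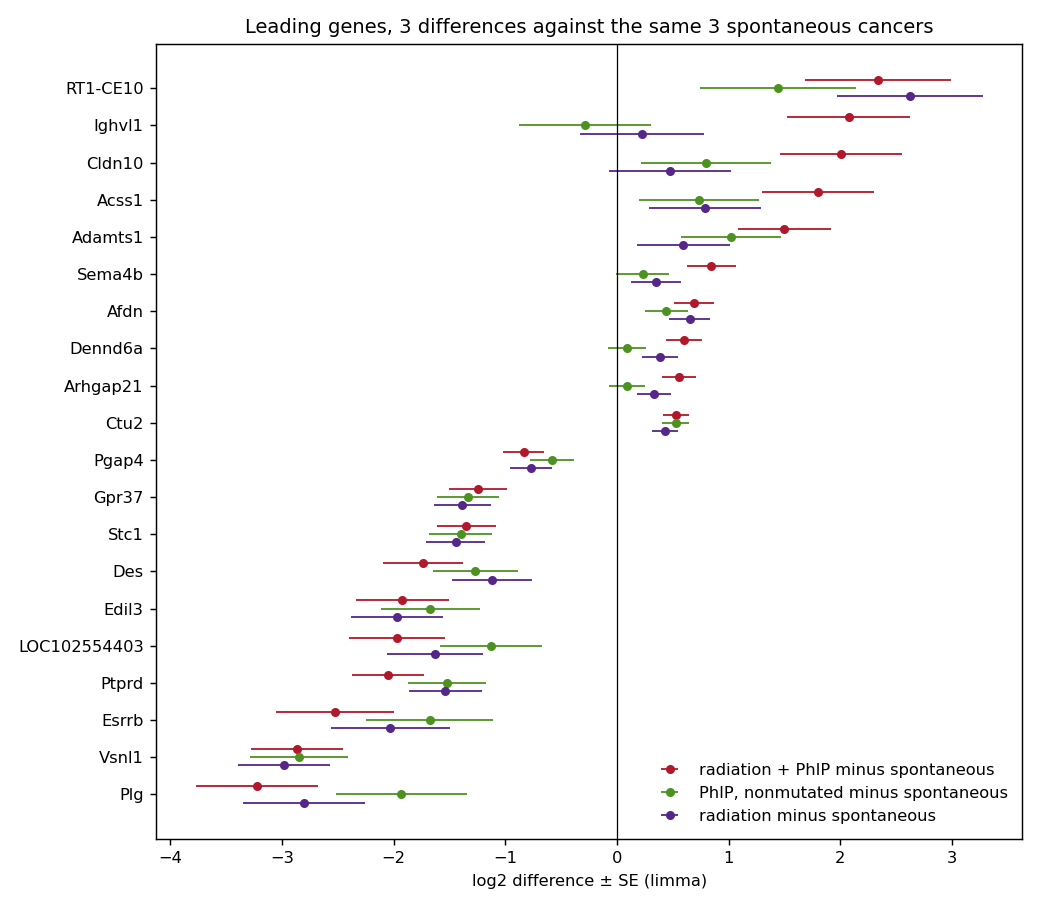
Log2 difference ± SE from the limma fit for 20 genes, the 10 with the smallest p in each direction, for radiation plus PhIP (red), PhIP (green) and radiation (purple) cancers, each minus the same 3 spontaneous cancers. The 3 differences for Vsnl1 lie between −2.98 and −2.85, while Ighvl1 is at 2.07 after both agents, −0.29 after PhIP and 0.22 after radiation.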

How the data were processed

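The deposited table gives, for every array, a linear-scale intensity for each probe set. The authors had scaled each array, per the deposited values themselves, which have a mean of about 500 once 2% of probe sets at each end are left out, with the probe summary method not given in the sources used here. Biotin-labelled cRNA from 8 µg of total RNA was hybridised to single-colour arrays, per the labels' protocols. The platform annotation gave 1 gene symbol to 20832 of 31099 probe sets, several to 436 and none to 9831; symbols were updated through the gene identifier in RefSeq for 20764.

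Intensities were taken as log2(intensity + 42.8), where the constant is the 20th percentile of the table, so fold changes of dim genes are understated. Array medians differed by at most 0.38 log2 units (a difference over 0.5 would have called for quantile normalization), and the deposited scaling was kept. Probe sets stayed in if above 125.8, the 40th percentile, on at least 3 arrays. The one with the highest mean stood for each symbol, which left 11772 genes. All 36 arrays were fitted with 1 mean per group in limma 3.58.1 (R 4.3.3; lmFit, contrasts.fit, eBayes), with Benjamini-Hochberg adjustment over all genes and a threshold of 0.05. The interaction was radiation plus PhIP minus PhIP, less radiation minus spontaneous. The procedure was tested on simulated data. Single values per array were compared with an exact two-sided permutation test, 4 arrays against 3.

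Named genes are those past the threshold, those with the smallest p up to 10 in each direction, the 4 members of each list with the smallest p, and the leading 3 of each other contrast; the other members of a list are named to describe it. The members of the comparison, the lists and the tests were chosen with earlier results of these data known. Lists are described by counts and medians with no test. Arrays carry no count of molecules, so the number of arrays limits precision. Promoters of the 3 genes past the threshold, matched by symbol for 3 of 3, come from RefSeq (GRCr8).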

Additional observations from a re-analysis of the deposited data

Results flagged for a closer look

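Of 198 sets of values, each a gene or list mean over the cancers of 1 group, 15 had 1 cancer far from the others, and all 15 were among the 4 radiation plus PhIP cancers, where nearly all sets were drawn. For a single set taken by itself chance flags about 1 in 20, but list means share values with their own members and the genes were chosen with results known, so 15 cannot be read against that rate.

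Radiation plus PhIP cancer 1 held 6 of them. Its Vsnl1 was 6.24, below the 7.08 to 7.20 of the others, and its Mycn, a MYC family transcription factor, was 8.94, below 10.15 to 10.37. Ccnd3, cyclin D3, was 11.05 against 10.42 to 10.45, and the B cell antigen gene Ms4a1 was 9.30 against 6.78 to 7.11. The mean of its B and plasma cell list was 10.41 against 8.98 to 9.20, and that of its hormone list was 9.15 against 9.33 to 9.36.

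Radiation plus PhIP cancer 4 stood apart in mast cell genes. The protease Mcpt1 was 10.51 against 5.64 to 5.94, the tryptase Tpsab1 was 10.13 against 5.74 to 6.09, and the mast cell list mean was 10.15 against 6.78 to 7.02. Gpr37 was 10.32 against 10.17 to 10.18, and the keratin Krt1 was 6.71 against 7.29 to 7.31.

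Radiation plus PhIP cancer 2 had Bbc3, a p53-induced death gene, at 9.97 against 9.62 to 9.67, Sfrp2 at 11.21 against 11.82 to 11.93, and a nerve and Schwann cell list mean of 8.87 against 9.23 to 9.29. In radiation plus PhIP cancer 3 the red cell anion exchanger Slc4a1 was 6.15 against 7.53 to 7.80. The spontaneous group, with 3 cancers, was too small for this comparison.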

How the results depend on the processing

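None of the 3 genes past the threshold changed sign under the alternatives run; of the other named genes, none of them past the threshold, 12 did so in 15 values in all. Of the 34 list means, recomputed with quantile normalization only, that of T and NK cell genes did (−0.0062 to 0.0588). The cell cycle list had 25 of 26 members below 0 when spontaneous cancer 2 was left out and when the signal ceiling was a covariate, and 26 under the other alternatives. Against the main count of 3 genes, radiation plus PhIP minus spontaneous gave 6 with the 40th percentile as the added constant, 5 with quantile normalization, 5 with the hexokinase 3'/5' ratio as a covariate, 27 with only the 7 arrays and 770 with array weights, whose estimation ended with a warning that its tolerance was not reached. With the signal ceiling as a covariate, chosen after seeing the data, it was 2. Leaving out 1 cancer gave 2 to 8 for that comparison, 0 to 1 for the interaction (1 without spontaneous cancer 3), 0 to 3 for radiation plus PhIP against the other induced groups, and 4 to 7 for spontaneous against the other induced groups. The genes changed as well as the counts. Without spontaneous cancer 2, 1 of the 2 genes of the main comparison was among its 3. For spontaneous against the other induced groups, 3 of the 7 genes remained whichever spontaneous cancer was left out. Array weights gave 6 for the interaction, 1 for radiation plus PhIP against the other induced groups and 323 for spontaneous against them; the last was 3 with only its own groups. With the replicate number as a replicate block, the main count was 3 with all 3 genes shared, and spontaneous against the other induced groups gave 4. Replicate numbers did not pair the samples: deviations of same-numbered cancers correlated at 0.05, 0.07 and −0.02. Over the alternatives, the 3 genes past the threshold kept their call in 48 values and lost it in 6. Adjusted p ranged from 6.52e-05 to 0.102 over the alternatives. All 34 list means moved by less than the spread between replicates with quantile normalization. Where a value changed, the cause was not tested. Signal over background limits Vsnl1 and Plg, whose radiation plus PhIP levels are near the low end of the scale, so their folds depend on the added constant (Plg −2.51 to −3.65 and Vsnl1 −2.26 to −3.19 over the constants tried).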

Other observations

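Red cell genes, listed as markers of blood in the tissue, had higher values in radiation plus PhIP cancers for the haemoglobin gene Hbb (10.86, 11.43, 10.57 and 11.15 against 9.34, 9.75 and 10.43, difference 1.16) and for the haem synthesis gene Alas2 (7.38 to 7.81 against 5.99 to 7.34, difference 0.81), and neither passed the threshold; the other measured member, Slc4a1, had lower values (−0.50). The neutrophil genes S100a8 (1.63) and S100a9 (2.11) were highest in radiation plus PhIP cancer 1, at 10.19 and 11.31, and overlapped with spontaneous cancers through radiation plus PhIP cancer 2, at 6.28 and 7.52. Saa3, an acute phase protein, was the reverse, with 6.89 to 7.88 against 8.81, 10.97 and 8.93 (−2.13 ± 1.18, limma adjusted p = 0.536). Among interferon genes the chemokine Cxcl11 had higher values with no overlap (8.98 to 9.73 against 7.56 to 8.97, difference 0.98), while the list of 19 had a median of −0.21 and Cxcl10 (−0.46), Usp18 (−0.88) and Ifit3 (−0.48) had lower values with overlap. The neutrophil list also held Il1b, which had lower values with no overlap (−0.29).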
